A study of Mus musculus with 2 samples.

Results

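The genes described here are the ligands amphiregulin (Areg), epiregulin (Ereg), heparin-binding EGF-like growth factor (Hbegf), transforming growth factor alpha (Tgfa) and betacellulin (Btc), together with their receptor Egfr. They were chosen by name, 6 of the 32285 genes in the count tables, and their UMIs were read in every cell of both libraries. Because the genes were picked with their pattern over cell classes in view, the levels below describe that pattern and test nothing.

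The series compared tumours of PTIR1-expressing CT26 cells with tumours of mock CT26 cells. CT26 is a mouse colon carcinoma line, and both samples came from BALB/c mice, the inbred strain in which these cells form tumours after implantation. The title calls PTIR1 a suppressor of the immunoproteasome, the form of the proteasome that cells use when they make peptides for antigen presentation. The number and age of the mice, the days of growth, any pooling and the number of CT26 clones were not given in the sources used here, and the labels name tumour-infiltrating lymphocytes as the source although tumour-like, fibroblast-like and myeloid cells were present in both libraries. There was 1 library for each group, made by droplet-based 3' single-cell RNA sequencing, and counts are of unique molecular identifiers (UMIs), the tags that tell captured RNA molecules apart. No difference between the groups could therefore be tested, and each interval is an exact 95% interval that covers counting error only. PTIR1 itself was not analysed here, so the labels were not checked against it.

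The ligands of this family are made as membrane-bound precursors, and proteases of the ADAM group, above all Adam17, cut them free. Areg, Tgfa and Egf bind Egfr alone, whereas Hbegf, Ereg and Btc also bind Erbb4. Ligand binding pairs the receptor with itself or with Erbb2 or Erbb3 and starts the Ras and MAP kinase cascade, whose early target genes include feedback inhibitors of the pathway. In tumours amphiregulin is known from carcinoma cells, from activated macrophages and mast cells, and from regulatory T cells, in which it is associated with tissue repair.

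Ereg, Areg and Btc lie side by side on chromosome 5 (mm10, GENCODE vM21). Ereg spans chr5:91074622-91093646 and Areg chr5:91139599-91148432, both on the plus strand, and Btc spans chr5:91357261-91402994 on the minus strand, so that the 3 genes lie within 328 kb. Tgfa spans chr6:86195223-86275719 and Egfr chr11:16752203-16918158, both on the plus strand. The promoters of Areg and Btc, 250 bases before to 50 after the annotated start, are shown because these neighbours had different patterns over the cell classes. Both sequences come from RefSeq (GRCm38.p6), the Areg promoter being chr5:91139349-91139648 on the plus strand and the Btc promoter chr5:91402945-91403244 on the minus strand. Capitals mark matches to TGACGTCA, the cyclic AMP response element, and to TATAAA, the TATA box.
Areg: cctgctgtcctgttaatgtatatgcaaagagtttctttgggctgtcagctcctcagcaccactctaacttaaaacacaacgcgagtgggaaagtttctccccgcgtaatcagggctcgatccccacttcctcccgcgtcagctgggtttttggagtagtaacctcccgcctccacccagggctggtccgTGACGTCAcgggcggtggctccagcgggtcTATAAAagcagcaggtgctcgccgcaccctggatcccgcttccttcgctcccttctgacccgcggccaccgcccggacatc
Btc: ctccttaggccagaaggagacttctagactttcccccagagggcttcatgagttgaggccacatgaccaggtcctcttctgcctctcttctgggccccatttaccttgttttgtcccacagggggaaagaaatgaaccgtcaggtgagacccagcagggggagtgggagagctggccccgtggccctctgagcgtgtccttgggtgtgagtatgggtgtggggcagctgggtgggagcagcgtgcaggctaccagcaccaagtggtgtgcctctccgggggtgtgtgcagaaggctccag
The Areg promoter held TGACGTCA 61 bases before the start and TATAAA 31 bases before it. Among 32851 promoters of the same length, 1.79% held TGACGTCA and 13.6% held TATAAA, counted on both strands. Neither the Btc promoter nor those of Tgfa and Egfr held either motif, and none of the 4 promoters held TGANTCA, the AP-1 motif, which 7.81% of all promoters held and which cannot overlap TGACGTCA.

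The PTIR1 library held 9006 barcodes and 98540561 UMIs, and the mock library 10833 barcodes and 95166611 UMIs. After filtering, 7500 PTIR1 cells (median 6935 UMIs) and 8632 mock cells (median 3224 UMIs) were kept, and 30 barcodes occurred in both libraries. Cells were clustered without the 6 genes, and clusters were named from marker genes as tumour-like, macrophage-like and so on. The unnamed clusters held 24.1% of the PTIR1 cells and 44.1% of the mock cells but only 7.33% and 13.6% of the UMIs. Clusters called mixed, which carried macrophage and NK cell markers together, held 6.17% of the PTIR1 cells and 2.36% of the mock cells. The 225 PTIR1 and 342 mock tumour-like cells had Tm4sf1, a surface protein of many carcinoma cells, at 892 and 1010.4 CPM (UMIs per 1000000 UMIs of the class), but Epcam, Krt7, Cldn4 and Perp had 0 UMIs in both libraries. The fibroblast-like class was very uneven, with 812 PTIR1 cells and 47 mock cells, and it carried Tm4sf1 at 775 and 754 CPM beside its collagen genes. The 12 tumour markers summed to 814 CPM in PTIR1 fibroblast-like cells and 825 CPM in mock fibroblast-like cells, most of it Tm4sf1. Msln, another tumour marker, had 23.6 and 20.6 CPM there but 90.5 and 95.4 CPM in tumour-like cells. Tumour-like cells in turn carried fibroblast markers, 9 genes that summed to 701 CPM in PTIR1 and 603 CPM in mock cells. The tumour markers summed to 1053 and 1318 CPM there. The part of tumour RNA in the results of the fibroblast-like class was not tested, nor was that of fibroblast RNA in those of the tumour-like class.

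The cell classes that held the Areg UMIs differed between the libraries. In PTIR1 tumours its UMIs came from tumour-like, macrophage-like, mixed, fibroblast-like and monocyte-like cells, whereas in the mock tumour most came from tumour-like cells. Tumour-like cells held 713 of 2559 Areg UMIs in the PTIR1 library (27.9%, interval 26.1% to 29.6%) and 1182 of 1552 in the mock library (76.2%, interval 74.0% to 78.3%). Macrophage-like cells held 780 Areg UMIs in the PTIR1 library (30.5%, interval 28.7% to 32.3%) and 103 in the mock library (6.64%, interval 5.45% to 7.99%). With the monocyte-like cells added, the share was 38.1% in the PTIR1 library and 9.92% in the mock library, and with the mixed clusters added as well it was 53.3% and 12.7%. These shares depend on how many cells of each class were captured as well as on the RNA per cell.

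**Figure D1:**
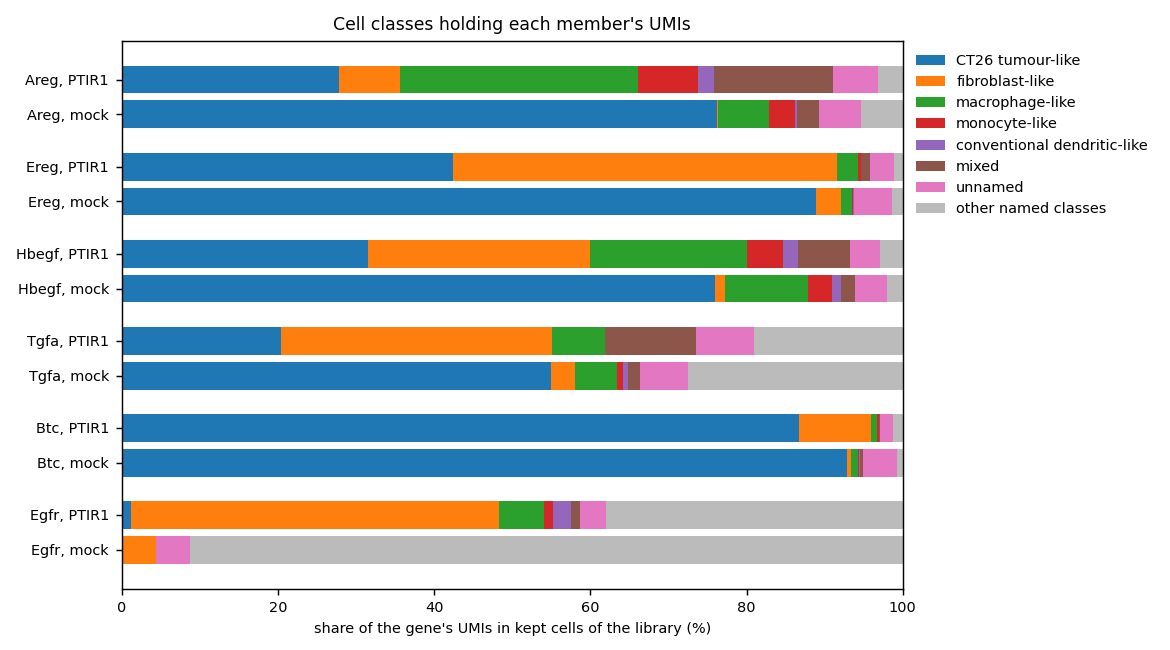
Share of each gene's UMIs (x axis, percent of the gene's UMIs in kept cells of the library) held by each cell class, with the PTIR1 library above the mock library for every gene. For Areg, macrophage-like cells take 30.5% in the PTIR1 library and 6.64% in the mock library, and tumour-like cells take 27.9% and 76.2%.

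Within tumour-like cells the Areg level was nearly the same in both libraries. Areg stood at 69.2 CPM in PTIR1 tumour-like cells (interval 64.2 to 74.5) and 62.6 CPM in mock tumour-like cells (interval 59.1 to 66.3), a ratio of 1.11 (interval 1.01 to 1.21). Removing doublets by the same rate in both libraries turned the direction, with a log2 ratio of -0.03, and weighing each cell equally or thinning the cells gave 0.77 and 1.29. Areg was seen in 114 of 225 PTIR1 tumour-like cells (50.7%) and 147 of 342 mock tumour-like cells (43.0%), with up to 80 UMIs in a PTIR1 cell and 92 in a mock cell.

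Macrophage-like cells had 37.5 Areg CPM in the PTIR1 library (interval 34.9 to 40.2) and 4.07 CPM in the mock library (interval 3.32 to 4.94), so that the PTIR1 level was 9.21-fold higher (interval 7.49 to 11.4). Monocyte-like cells had 35.3 CPM in the PTIR1 library and 7.27 CPM in the mock library, a ratio of 4.85 (interval 3.55 to 6.74) that was 9.79 at the finer cluster resolution. Conventional dendritic-like cells had 17.0 and 1.19 CPM, from 52 PTIR1 UMIs and 4 mock UMIs, a ratio of 14.3 (interval 5.25 to 54.3). In that class 3 PTIR1 cells held 44 of the 52 UMIs, and the ratio was 5.50 with each cell weighed equally and 2.47 when each library was clustered on its own (32 and 2 UMIs). Macrophages are the main phagocytes of the tumour, monocytes their blood-borne precursors, and conventional dendritic cells the cells that carry antigen to T cells. In all 3 classes the interval of the ratio lay above 2 in the joint clustering.

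In PTIR1 tumours the macrophage-like and monocyte-like levels overlapped and stood below the tumour-like level. They were followed by conventional dendritic-like cells and then by neutrophil-like cells at 14.8 CPM (26 UMIs), T-like cells at 11.7 CPM (7 UMIs), plasmacytoid dendritic-like cells at 10.5 CPM (22 UMIs) and fibroblast-like cells at 9.57 CPM (199 UMIs), each overlapping its neighbour in that order. In the mock tumour T-like cells (33.1 CPM) stood next below the tumour-like cells, and monocyte-like (7.27), mast or basophil-like (4.53), macrophage-like (4.07), plasmacytoid dendritic-like (3.93), B-like (2.72), NK-like (2.47), neutrophil-like (2.34), fibroblast-like (1.37) and conventional dendritic-like cells (1.19) followed, each overlapping the next. Mast or basophil-like cells had 0 Areg UMIs in 46 PTIR1 cells, which allows up to 6.73 CPM and 6.52% of cells with a UMI, and 7 UMIs in 232 mock cells. A difference of that class was not detectable at this depth.

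B-like cells served as the measure of background, the UMIs that free RNA gives in any droplet. They had 3.12 CPM in the PTIR1 library (12 UMIs, 1.04% of cells with a UMI, median 4356 UMIs per cell) and 2.72 CPM in the mock library (5 UMIs, 1.20% of cells, median 4240 UMIs). NK-like cells had 2.52 and 2.47 CPM. Macrophage-like cells of the mock tumour, at 4.07 CPM and 1.83% of cells, stood close to these levels. Macrophage-like cells of the PTIR1 tumour stood well above them, with 7.39% of cells. Both were deeper than B-like cells, with medians of 12943 UMIs for PTIR1 and 13198 UMIs for mock macrophage-like cells. Tm4sf1 had 25.5 CPM in PTIR1 and 25.1 CPM in mock B-like cells, but 10.6 and 10.0 CPM in macrophage-like cells. The B-like level may therefore lie above the background of macrophage-like cells, and closeness to it does not show that mock Areg there was free RNA. When every cell was thinned to 1000 UMIs, 2.16% of 1388 PTIR1 macrophage-like cells and 0.293% of 1705 mock ones still had an Areg UMI. Tumour-like cells had 12.9 UMIs of Tm4sf1 for each Areg UMI in the PTIR1 library and 16.1 in the mock library. The same ratio was 0.282 in PTIR1 and 2.46 in mock macrophage-like cells, and the summed tumour markers there were 13.8 and 14.3 CPM.

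The Areg UMIs of macrophage-like cells came from few cells. Of 1434 PTIR1 macrophage-like cells, 106 had any Areg UMI and 22 had 10 or more, and those 22 held 622 of the 780 UMIs (79.7%), with up to 68 in a cell. Of 1747 mock macrophage-like cells, 32 had any and 3 had 10 or more, holding 48 of 103 UMIs (46.6%), with up to 23 in a cell. Monocyte-like cells were alike, with 3 of 373 PTIR1 cells holding 145 of 196 UMIs, and 1 of 537 mock cells holding 12 of 51. Areg was therefore concentrated in a small share of the myeloid cells in the PTIR1 tumour, a share larger than in the mock tumour. Leaving out the 5 cells with most Areg in each library, a setting added after the data were seen, gave 513 PTIR1 and 43 mock UMIs and a ratio of 14.5 in macrophage-like cells. The 5 mock cells held 60 of the 103 mock UMIs, so this setting took a larger share from the mock library and thereby raised the ratio.

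**Figure D2:**
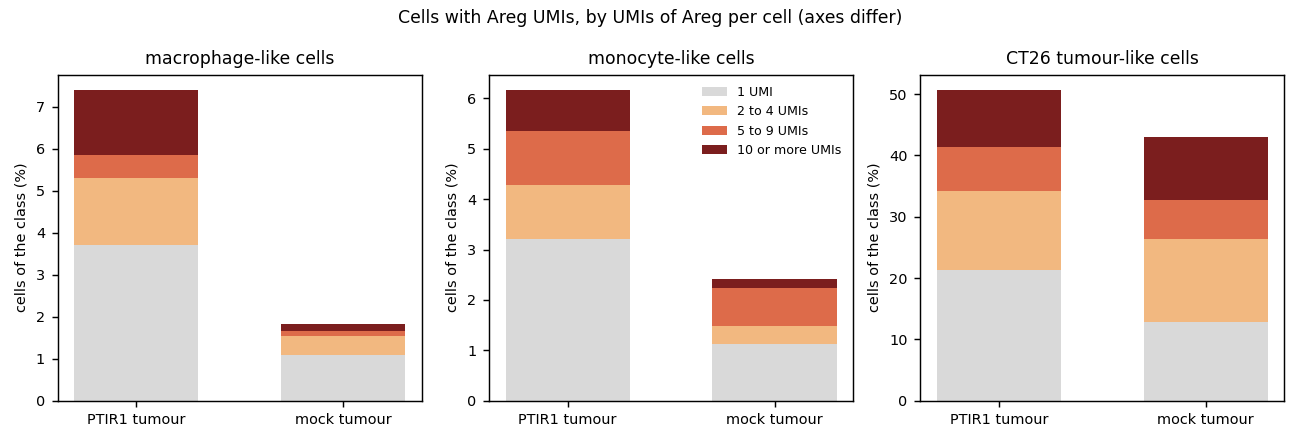
Percent of cells (y axis, different scale in each panel) with 1, 2 to 4, 5 to 9 or 10 or more Areg UMIs in macrophage-like, monocyte-like and tumour-like cells, PTIR1 left of mock. Any Areg UMI was found in 7.39% of PTIR1 and 1.83% of mock macrophage-like cells, and in 50.7% of PTIR1 and 43.0% of mock tumour-like cells.

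Each of the 4 macrophage-like clusters with cells in both libraries had more Areg in the PTIR1 tumour. The cluster led by Thbs1, Arg1 and Mmp12 had 53.1 CPM in PTIR1 and 5.52 CPM in mock cells (371 and 31 UMIs), and the cluster led by Vcan and Cxcl14 had 36.0 and 5.06 CPM (279 and 66 UMIs). A cluster with C1q genes and the proliferation gene Mki67 had 18.4 and 0.817 CPM (98 and 5 UMIs), and a shallow cluster with Thbs1 and Vcan had 58.1 and 1.93 CPM (32 UMIs and 1 UMI). An unnamed cluster with macrophage markers, in which Rsad2 and Ifit2, genes that interferon induces, were among the leading genes, had 42.4 and 6.87 CPM (105 and 28 UMIs). Another unnamed cluster with macrophage markers, led by Ly6i and Cxcl9, had 0 Areg UMIs in 41 PTIR1 cells and 6 in 262 mock cells. The largest mixed cluster with macrophage and NK cell markers had 35.8 and 11.04 CPM (356 and 43 UMIs). A smaller mixed cluster had 15 UMIs in 17 PTIR1 cells and 0 in 64 mock cells, and another had 18 UMIs in 116 PTIR1 cells and no mock cells. The size of the macrophage-like ratio depended on which cells were counted: it was 3.13 when macrophages were taken by a direct gate on C1q genes and Csf1r (231 and 101 UMIs), 4.48 at the finer cluster resolution, 5.51 in cells with at least 500 genes and 6.75 with the 20% mitochondrial limit.

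Lymphocyte RNA was present in the macrophage-like class. T cell markers, 12 genes of which none was at 0, summed to 168 CPM in PTIR1 and 283 CPM in mock macrophage-like cells, and the 8 NK cell markers, of which Klra8 alone was at 0, summed to 831 and 462 CPM. Fibroblast markers summed to 35.2 and 5.53 CPM, and B cell markers to 89.6 and 10.4 CPM. Neutrophil markers summed to 1138 and 863 CPM, and mast or basophil markers to 32.4 and 101 CPM. Cells were split by T cell markers only, and the part of the NK cell list and of these other lists was not tested. The 313 PTIR1 macrophage-like cells with at least 1 UMI of a T cell marker other than Cd4 had Areg at 44.8 CPM, and the 1121 without had 34.2 CPM (interval 31.3 to 37.4). Among the 313, the 113 cells with 3 or more such UMIs had only 20.4 CPM (interval 16.0 to 25.7). In the mock library the 537 cells with such a UMI had 1.32 CPM and the 1210 without had 5.61 CPM (interval 4.52 to 6.89). The 137 mock cells with 3 or more had 1.09 CPM (4 UMIs). Counting only cells without these UMIs, again a setting added after the data were seen, gave a ratio of 6.10.

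The PTIR1 macrophage-like cells richest in Areg were also richer in Ereg. The 30 cells with 5 or more Areg UMIs had 19.6 Ereg CPM (13 UMIs) and the 76 cells with 1 to 4 had 21.7 CPM (34 UMIs), whereas the 1328 cells with none had 3.71 CPM (69 UMIs). Hbegf was much more even over the same cells, at 135, 146 and 122 CPM. The tumour markers summed to 9.03 CPM in the 30 cells, 5.75 CPM in the 76 cells and 14.7 CPM in cells without Areg. The macrophage markers summed to 4773.5 CPM in the 30 cells, 5299.5 CPM in the 76 cells and 5993 CPM in cells without Areg. Csf1r, the receptor for the macrophage growth factor and 1 of these markers, had 263, 223 and 256 CPM in the same order. Markers of type 2 innate lymphoid cells, which are known to make amphiregulin, were 7 genes, with Il13 and Il5 at 0 over the class. They summed to 63.2 CPM in the 30 cells, 55.6 CPM in the 76 cells and 15.2 CPM in the rest. In this class 4 PTIR1 cells, T-like when each library was clustered on its own, held 39 UMIs of these markers and 48 Areg UMIs. Their medians were 67.5 T cell marker UMIs and 2.5 macrophage marker UMIs. The part of such cells in the Areg level was not tested.

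Among T-like cells Areg was lower in the PTIR1 tumour. It had 7 UMIs in 126 PTIR1 T-like cells (11.7 CPM, interval 4.71 to 24.1) and 51 in 244 mock T-like cells (33.1 CPM, interval 24.6 to 43.5), 2.82-fold lower in PTIR1 (interval 1.28 to 7.38). Nearly all of it lay in the cluster led by Foxp3, Ikzf2 and Il2ra, genes that mark regulatory T cells. That cluster had 6 Areg UMIs in 5 of 93 PTIR1 cells (15.6 CPM) and 48 in 16 of 100 mock cells (102 CPM), 6.56-fold lower in PTIR1 (interval 2.80 to 18.8). Over the whole T-like class, markers of type 2 innate lymphoid cells summed to 544 CPM in PTIR1 and 205 CPM in mock cells. The part of this difference in the Areg ratio was not tested. The direction rested on where a few cells were placed: when each library was clustered on its own, 4 PTIR1 cells that the joint clustering had put among macrophage-like cells, 2 of them with 48 Areg UMIs in all and as many as 43 in a cell, were T-like, and the ratio turned to 2.98 (55 PTIR1 UMIs and 50 mock UMIs).

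**Figure D3:**
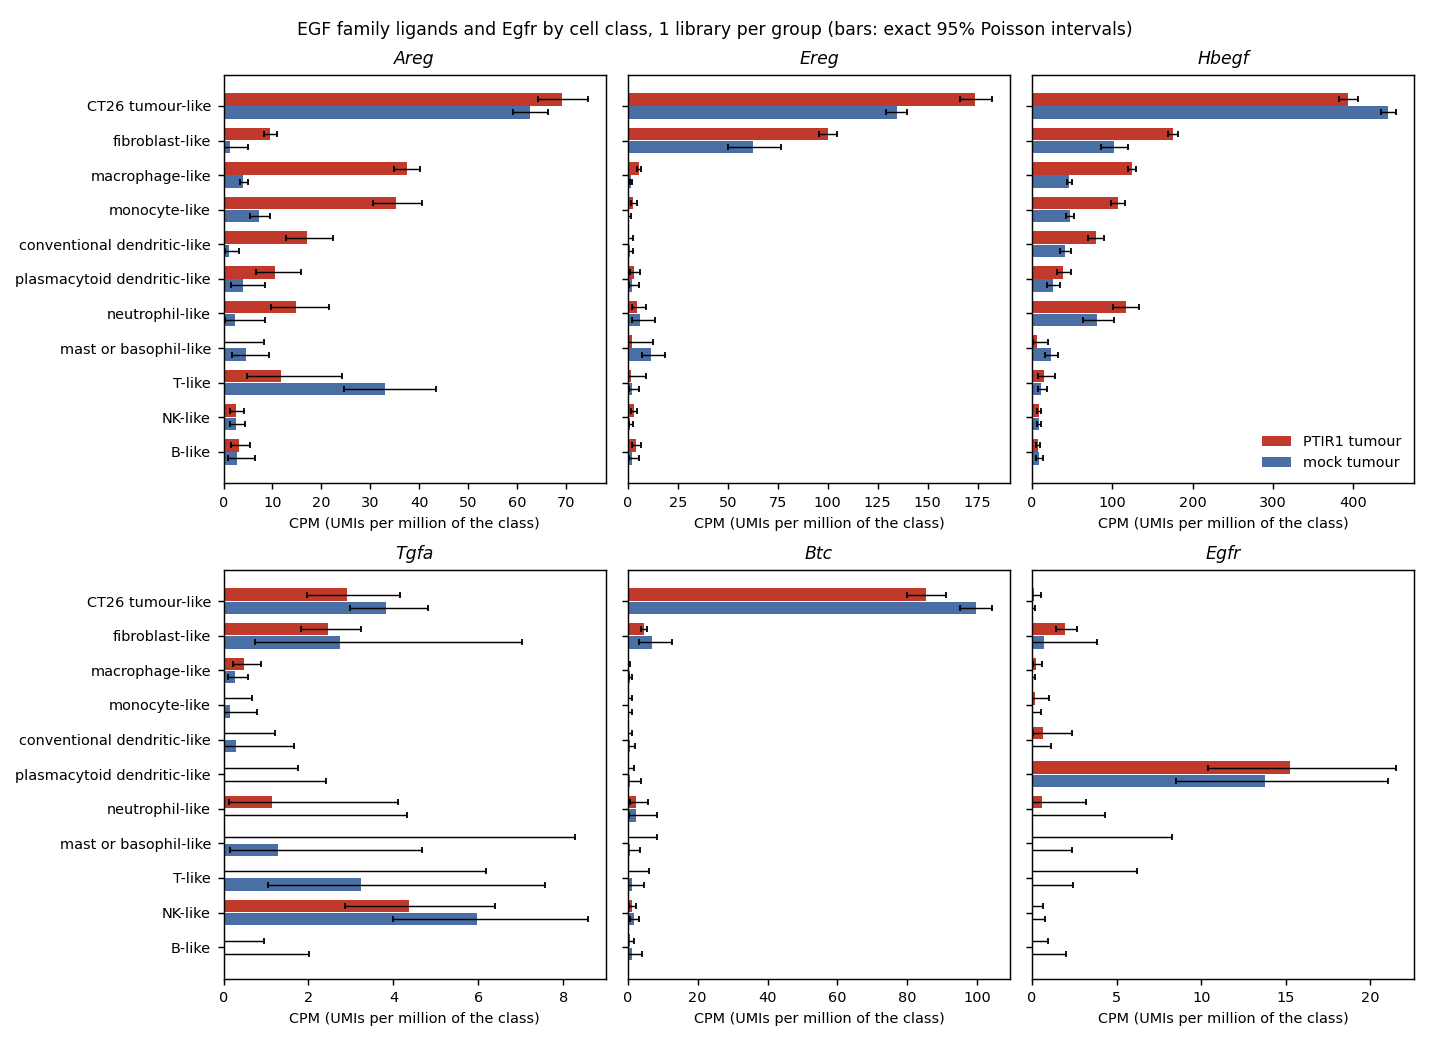
Level of each gene (x axis, CPM, a different scale in each panel) in each cell class (y axis), PTIR1 above mock, with exact 95% Poisson intervals from 1 library per group. Areg was seen at 37.5 CPM in PTIR1 and 4.07 CPM in mock macrophage-like cells, Btc almost only in tumour-like cells, and Egfr at 15.2 and 13.8 CPM in plasmacytoid dendritic-like cells.

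Hbegf, a gene of chromosome 18 whose precursor is also the receptor for diphtheria toxin in humans, was spread over more classes than Areg. Tumour-like cells had the highest level, 394 CPM in the PTIR1 library (interval 382 to 406) and 444 CPM in the mock library (interval 434 to 454), 1.13-fold lower in PTIR1 (interval 1.08 to 1.17). Fibroblast-like cells followed with 176 and 102 CPM, a ratio of 1.73 (interval 1.46 to 2.05), beside the tumour markers described above. That ratio was 1.06 in cells thinned to 1000 UMIs (146 and 8 UMIs) and 3.404 without the 5 cells with most Hbegf in each library, which left 57 of the 148 mock UMIs. The tumour-like difference turned to a log2 ratio of 0.03 when cells were thinned to 1000 UMIs.

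Macrophage-like, monocyte-like, dendritic-like and neutrophil-like cells had more Hbegf in the PTIR1 tumour. Macrophage-like cells had 125 CPM in the PTIR1 library (2595 UMIs, 39.5% of cells) and 46.5 CPM in the mock library (1176 UMIs, 24.8% of cells), a ratio of 2.68 (interval 2.50 to 2.88). Monocyte-like cells had 107 and 47.0 CPM, a ratio of 2.28 (interval 1.99 to 2.62) that was 4.01 with doublets removed by rate in both libraries and 6.61 with each library clustered on its own. Conventional dendritic-like cells had 79.3 and 40.9 CPM, a ratio of 1.94 (interval 1.57 to 2.41) that was 3.86 in thinned cells (19 and 5 UMIs) and 18.5 with each library clustered on its own (240 and 2 UMIs). Neutrophil-like cells had 116 and 80.9 CPM, a ratio of 1.44 (interval 1.09 to 1.92) that turned to a log2 ratio of -0.20 in thinned cells and was 2.20 without the 5 highest cells of each library. Plasmacytoid dendritic-like cells had 38.6 and 25.5 CPM, a ratio of 1.51 (interval 1.02 to 2.27). B-like cells, again the measure of free RNA, had 7.02 and 8.17 CPM, and NK-like and T-like cells stood at 8.44 to 15.1 CPM over both libraries with intervals that met those of the B-like cells.

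In the PTIR1 tumour the Hbegf level ran from macrophage-like over neutrophil-like to monocyte-like cells, neighbours in this order overlapping, and in the mock tumour monocyte-like, macrophage-like and conventional dendritic-like cells did not differ beyond their intervals. Among the macrophage-like clusters with cells in both libraries, the highest level was that of the cluster led by Thbs1 and Arg1, with 210 CPM in 506 PTIR1 cells and 103 CPM in 488 mock cells. The cluster with C1q genes and Mki67 was lowest, at 35.9 and 11.6 CPM. Within the conventional dendritic-like class 241 of 242 PTIR1 UMIs and 135 of 137 mock UMIs lay in the cluster with Cd209a and Clec9a, and the cluster of mature cells with Ccr7 and Fscn1 held the rest. Unlike Areg, Hbegf was carried by many macrophage-like cells: 67 PTIR1 cells with 10 or more UMIs held 47.6% of the UMIs, and 17 such mock cells held 24.0%. The ratio of macrophage-like Hbegf lay between 2.11 and 3.08 over the 17 other settings tried.

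Among mast or basophil-like cells Hbegf was lower in the PTIR1 tumour, with 3 UMIs in 46 cells (6.73 CPM) and 36 UMIs in 232 mock cells (23.3 CPM), 3.46-fold lower (interval 1.09 to 17.6). The share of cells with a Hbegf UMI was 6.52% in PTIR1 and 6.47% in mock cells, and 2 mock cells held 22 of the 36 UMIs, with 15 in one of them. In that class, where no member reached 50 UMIs, 0.835% of 4669 genes with at least 50 UMIs were at least 2-fold higher and 8.37% at least 2-fold lower in PTIR1, and the class median depth was 8129.5 UMIs in PTIR1 and 4440.5 UMIs in mock cells. A mast cell source of Areg or Ereg could not be followed in the PTIR1 library, because only 46 such cells were kept.

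Ereg, which binds Egfr with low affinity, came almost wholly from tumour-like and fibroblast-like cells. Tumour-like cells had 174 CPM in the PTIR1 library (1792 UMIs, interval 166 to 182) and 135 CPM in the mock library (2540 UMIs, interval 129 to 140), a ratio of 1.29 (interval 1.22 to 1.37). Fibroblast-like cells had 100.1 CPM in the PTIR1 library (2081 UMIs) and 62.5 CPM in the mock library (91 UMIs), a ratio of 1.60 (interval 1.30 to 1.998). Few mock cells set that ratio: without the 5 cells with most Ereg in each library it was 5.68, from 1836 PTIR1 and 18 mock UMIs. Because the PTIR1 library held many more fibroblast-like cells, they carried 49.2% of its Ereg UMIs, against 3.18% in the mock library. Fewer captured cells and fewer cells in the tumour cannot be told apart here.

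Outside these classes Ereg was near the level of B-like cells, which was 3.90 CPM in the PTIR1 library and 2.18 CPM in the mock library. Macrophage-like cells had 5.57 CPM in the PTIR1 library (116 UMIs) and 1.62 CPM in the mock library (41 UMIs), a ratio of 3.44 (interval 2.39 to 5.04) that was 1.495 by the direct gate, 1.69 in thinned cells and 5.98 at resolution 0.5. The PTIR1 macrophage-like level overlapped that of B-like cells, which were shallower and may overstate the background of macrophage-like cells. Monocyte-like cells had 2.70 and 0.570 CPM, from 15 and 4 UMIs. Mast or basophil-like cells of the mock tumour had 18 UMIs at 11.6 CPM (interval 6.90 to 18.4), above the interval of mock B-like cells (0.594 to 5.58), and 1 UMI was found in PTIR1 cells of that class. These mock cells also had more Tm4sf1 than mock B-like cells (48.5 against 25.1 CPM) and more of the fibroblast markers (66.0 against 14.2 CPM). The B-like level may therefore understate their background, and the part of free RNA in their Ereg was not tested. Neutrophil-like cells had 4.55 CPM in PTIR1 (8 UMIs) and 5.86 CPM in mock cells (5 UMIs), with intervals that met those of B-like cells.

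Btc, a ligand of both Egfr and Erbb4, was the most confined to tumour-like cells. They held 880 of 1015 Btc UMIs in the PTIR1 library (86.7%) and 1881 of 2026 in the mock library (92.8%). The level was 85.4 CPM in PTIR1 (interval 79.9 to 91.2) and 99.7 CPM in mock tumour-like cells (interval 95.2 to 104), 1.17-fold lower in PTIR1 (interval 1.08 to 1.27). Fibroblast-like cells had 4.52 and 6.87 CPM, and no other named class exceeded 2.34 CPM. Areg, Ereg and Btc are neighbours in the genome, and all 3 were seen in tumour-like cells, but of the 3 only Areg stood above the B-like level in PTIR1 macrophage-like cells with intervals apart.

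Tgfa was sparse, with 147 UMIs in the PTIR1 library and 131 in the mock library. Tumour-like cells had 2.91 CPM in PTIR1 (30 UMIs) and 3.81 CPM in mock cells (72 UMIs), a ratio of 0.763 (interval 0.481 to 1.18). NK-like cells had 4.36 and 5.97 CPM (26 and 29 UMIs), a ratio of 0.730 (interval 0.413 to 1.28), and fibroblast-like cells 2.45 and 2.75 CPM (51 and 4 UMIs). These 3 classes did not differ from each other beyond their intervals within a library. B-like cells had 0 Tgfa UMIs in both libraries, which allows up to 0.780 CPM in PTIR1 and 1.63 CPM in mock cells, and macrophage-like cells had 0.480 and 0.277 CPM.

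Many deep tumour-like cells had UMIs of more than 1 ligand. Among cells with at least 10000 UMIs, thinned to 10000, Hbegf had a UMI in 106 of 134 PTIR1 cells and 163 of 200 mock cells, Ereg in 90 and 128, Btc in 53 and 95, and Areg in 38 and 60. Of the 38 PTIR1 cells with Areg, 36 had Hbegf, 28 had Ereg and 17 had Btc, and of the 60 mock cells 53, 45 and 39. Over all these deep cells, with or without Areg, the PTIR1 and mock shares were 79.1% and 81.5% for Hbegf and 67.2% and 64% for Ereg. For Btc they were 39.6% and 47.5%. Exactly 3 of the 5 ligands were seen in 45 PTIR1 cells and 54 mock cells, 4 in 13 and 33, all 5 in 0 and 1, and none in 14 and 12. Spearman's rho between Areg and Ereg was 0.23 over the PTIR1 cells and 0.31 over the mock cells, and between Areg and Hbegf 0.38 and 0.19. Between Ereg and Hbegf it was 0.34 and 0.29. Pairs with Btc were weaker in PTIR1, at 0.061 and 0.27 for Areg, 0.14 and 0.32 for Ereg, and 0.095 and 0.28 for Hbegf. These are descriptions over cells that share a library and were thinned to 1 depth.

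The shallow tumour-like cluster differed from the deep one. In its 97 PTIR1 and 144 mock cells, with a median of 2268 UMIs over both libraries, Areg had 106 and 44.4 CPM (53 and 24 UMIs), a ratio of 2.38 (interval 1.45 to 4.04), while Ereg had 62.0 and 102 CPM and Btc 34.0 and 81.5 CPM. In the deep cluster of 128 PTIR1 and 198 mock cells, with a median of 66317.5 UMIs, Areg had 67.3 and 63.2 CPM, Ereg 180 and 136 CPM and Btc 88.0 and 100.2 CPM. An unnamed shallow cluster with the tumour marker Tm4sf1 had 165 PTIR1 and 2359 mock cells and a median of 858 UMIs. Its Areg level was 39.3 and 21.0 CPM, from 7 and 46 UMIs.

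Egfr, the receptor for all 5 ligands, was barely detected in tumour-like cells. It had 1 UMI in 225 PTIR1 tumour-like cells (0.0971 CPM) and 0 UMIs in 342 mock cells, which allows up to 0.159 CPM. Most Egfr UMIs lay in plasmacytoid dendritic-like cells (36.8% of 87 in the PTIR1 library and 91.3% of 23 in the mock library) and fibroblast-like cells (47.1% and 4.35%). Plasmacytoid dendritic cells are the interferon-producing dendritic cells, marked here by Siglech and Klk1. They had 32 UMIs in 24 of 135 PTIR1 cells (15.2 CPM, interval 10.4 to 21.5) and 21 UMIs in 18 of 143 mock cells (13.8 CPM, interval 8.52 to 21.0), a ratio of 1.11 (interval 0.620 to 2.02). No B-like, NK-like or T-like cell had an Egfr UMI in either library. Fibroblast-like cells had 41 UMIs in 34 of 812 PTIR1 cells (1.97 CPM, interval 1.42 to 2.67) and 1 UMI in 47 mock cells (0.687 CPM, interval 0.0174 to 3.83), levels whose intervals met. Macrophage-like cells had 5 UMIs in 1434 PTIR1 cells and 0 in 1747 mock cells.

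Of the other receptors, Erbb2, the partner with no ligand of its own, was seen in tumour-like cells at 8.06 CPM in PTIR1 and 8.53 CPM in mock cells, a ratio of 0.944 (interval 0.716 to 1.24), and in fibroblast-like cells at 10.5 and 10.3 CPM. Erbb3, which has almost no kinase activity, was highest in plasmacytoid dendritic-like cells at 25.3 and 30.8 CPM, a ratio of 0.820 (interval 0.543 to 1.24), and had 1.65 and 1.70 CPM in tumour-like cells. Erbb4 had 0 UMIs in all named classes of both libraries.

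**Figure D4:**
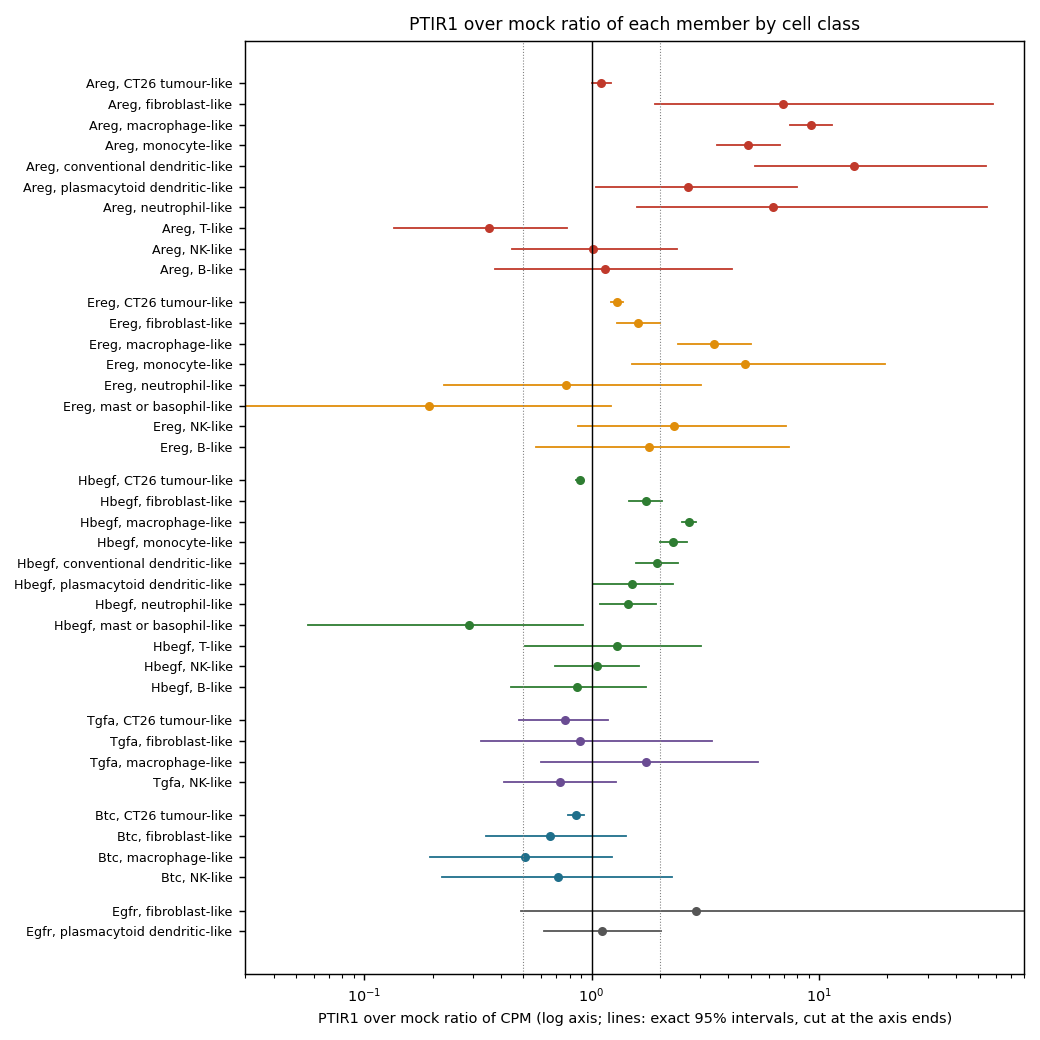
PTIR1 over mock ratio of CPM (x axis, log scale, lines are exact 95% intervals cut at the ends of the axis) for each gene and class with at least 10 UMIs and UMIs in both libraries. Dotted lines mark 0.5 and 2, and the Areg and Hbegf ratios of macrophage-like cells, 9.21 and 2.68, lie to the right of 2 with their intervals, while Areg in T-like cells lies at 0.354.

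Counting members with at least 50 UMIs in a class, all 3 measured in macrophage-like cells (Areg, Ereg and Hbegf) were at least 2-fold higher in PTIR1, where 2.44% of 11439 genes were. In monocyte-like cells both measured members (Areg and Hbegf) were, where 0.956% of 8887 genes were, and in conventional dendritic-like cells Areg was and Hbegf, at 1.94, lay just under 2, where 1.19% of 7834 genes were. In fibroblast-like cells 1 of 5 (Areg, 199 and 2 UMIs, ratio 6.97, interval 1.90 to 57.9) was, where 5.09% of 10585 genes were. In T-like cells Areg, the single member measured, was at least 2-fold lower, where 2% of 5160 genes were. None of the 5 members measured in tumour-like cells was past 2-fold in either direction, where 1.16% of 10548 genes were higher and 1.19% lower. Neutrophil-like cells had 1 measured member and NK-like and plasmacytoid dendritic-like cells 2 each, none past 2-fold, where 2.21%, 0.544% and 2.26% of genes were higher and 2.19%, 0.511% and 0.475% lower. No member was at least 2-fold lower in macrophage-like, monocyte-like or conventional dendritic-like cells, where 0.787%, 0.653% and 0.919% of genes were. The 6 genes were chosen for these contrasts, so the counts do not set them apart from other genes. The median log2 ratio was 1.78 for the 3 members in macrophage-like cells and -0.17 for the 5 in tumour-like cells, against -0.01 and -0.08 for all genes.

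The myeloid classes had other ligands of the family at closer levels in the 2 tumours. Nrg1, a neuregulin that binds Erbb3 and Erbb4, had 16.1 CPM in PTIR1 and 14.1 CPM in mock macrophage-like cells, a ratio of 1.14 (interval 0.981 to 1.33), and 39.6 and 45.6 CPM in monocyte-like cells, a ratio of 0.868 (interval 0.728 to 1.03). It was higher in PTIR1 in conventional dendritic-like cells, at 51.8 and 34.3 CPM (ratio 1.51, interval 1.18 to 1.93), and lower in fibroblast-like cells, at 14.8 and 36.4 CPM (ratio 0.407, interval 0.303 to 0.555), where 2.31% of 10585 genes were at least 2-fold lower. Egf itself had 58 UMIs in PTIR1 fibroblast-like cells (2.79 CPM) and 0 in mock fibroblast-like cells, which allows up to 2.06 CPM. Nrg2 had 14.8 and 24.2 CPM in plasmacytoid dendritic-like cells, a ratio of 0.610 (interval 0.366 to 1.01). Nrg3 had 0 UMIs in all named classes.

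Genes that release the ligands or pass on the receptor signal stayed within 2-fold in macrophage-like and tumour-like cells. Of 4 release genes measured in macrophage-like cells and 5 in tumour-like cells, none was past 2-fold. Over all genes, 2.44% and 1.16% were at least 2-fold higher in these classes and 0.787% and 1.19% lower. Counts of none among so few genes do not set them apart from other genes. Adam17, the main protease for Areg and Hbegf, had 119 CPM in PTIR1 and 137 CPM in mock macrophage-like cells, a ratio of 0.866 (interval 0.822 to 0.912), and 27.0 and 32.6 CPM in tumour-like cells, a ratio of 0.828 (interval 0.716 to 0.956). Adam10, the main protease for Btc, had a ratio of 1.09 (interval 1.03 to 1.16) in macrophage-like cells and 0.745 (interval 0.632 to 0.874) in tumour-like cells. None of the 7 signalling genes and inhibitors measured in either class was past 2-fold. Elsewhere 1 of 4 was at least 2-fold higher in neutrophil-like cells and 1 of 6 in plasmacytoid dendritic-like cells, where 2.21% and 2.26% of genes were. In mast or basophil-like cells 2 of 4 signalling genes and 1 of 2 release genes were at least 2-fold lower, where 8.37% of genes were. Errfi1, an inhibitor of Egfr, had 137 and 116 CPM in macrophage-like cells, a ratio of 1.18 (interval 1.12 to 1.24).

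Early target genes of MAP kinase signalling are also induced by many stimuli other than EGF receptor ligands. Of 14 measured in macrophage-like cells, 12 had a higher level in PTIR1, 2 of them at least 2-fold, and 2 a lower one, where 2.44% of 11439 genes were at least 2-fold higher and 0.787% lower. The median log2 ratio was 0.50 for the 14 and -0.01 for all genes. Egr1, an immediate early transcription factor, had 230 CPM in PTIR1 and 76.3 CPM in mock macrophage-like cells, a ratio of 3.02 (interval 2.86 to 3.18). Dusp5, a phosphatase that acts on ERK, had 172 and 74.4 CPM, a ratio of 2.31 (interval 2.18 to 2.44), and Phlda1 204 and 115 CPM, a ratio of 1.78 (interval 1.69 to 1.86). In tumour-like cells 7 of 14 were higher and 7 lower, none past 2-fold, with a median of -0.03 against -0.08 for all genes. Egr1 there had 738 and 649 CPM, a ratio of 1.14 (interval 1.11 to 1.17), and Dusp6, the feedback phosphatase of ERK, 146 and 118 CPM, a ratio of 1.24 (interval 1.16 to 1.32). Spry2, a feedback inhibitor of receptor signalling, had a ratio of 1.33 (interval 1.15 to 1.54), and Spred1, which restrains Ras, 0.769 (interval 0.689 to 0.857).

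**Figure D5:**
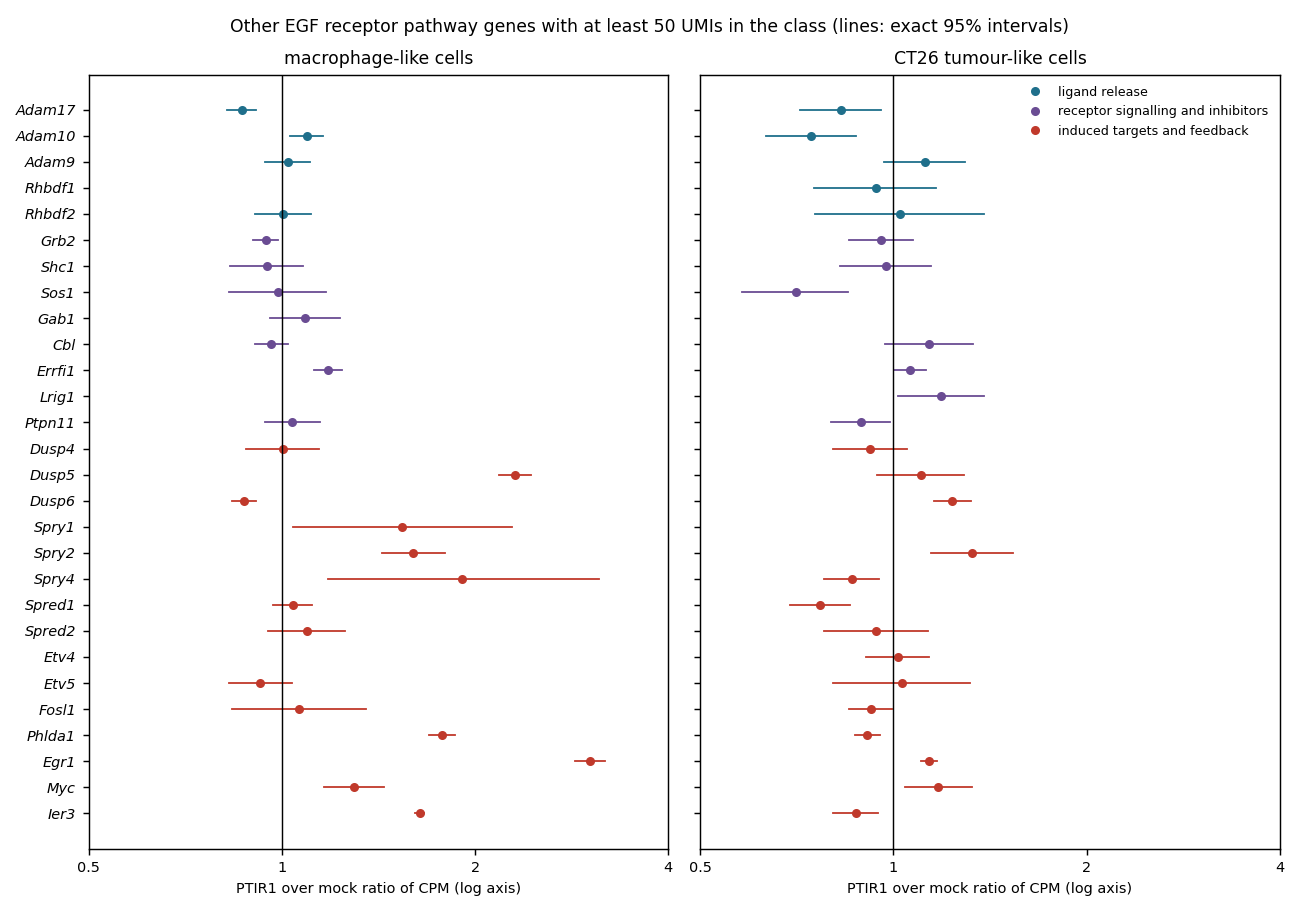
PTIR1 over mock ratio of CPM (x axis, log scale, lines are exact 95% intervals) of release genes, signalling genes and induced targets with at least 50 UMIs in macrophage-like cells (left) and tumour-like cells (right). Egr1 and Dusp5 lie at 3.02 and 2.31 in macrophage-like cells, and all points of tumour-like cells lie within 2-fold of 1.

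The same targets were counted in the other named classes. In B-like cells Egr1 had 864 CPM in PTIR1 and 354 CPM in mock cells, a ratio of 2.44 (interval 2.25 to 2.66), and 3 of 9 measured targets were at least 2-fold higher, where 1.43% of 7546 genes were, and none at least 2-fold lower, where 0.782% were. In monocyte-like cells 1 of 12 was at least 2-fold higher, Egr1 at 323 and 140.1 CPM, where 0.956% of 8887 genes were. In fibroblast-like cells 1 of 14 was, Dusp5 at 13.8 and 3.43 CPM (286 and 5 UMIs), where 5.09% of 10585 genes were. The median log2 ratio of the 14 was 0.39, against -0.02 for all genes. Conventional dendritic-like and neutrophil-like cells had 1 of 9 and 1 of 8 at least 2-fold higher, where 1.19% and 2.21% of genes were, and NK-like and T-like cells had none of 10 and none of 8, where 0.544% and 1.57% were. Mast or basophil-like cells had none of 8 at least 2-fold higher and 1 at least 2-fold lower, where 8.37% of genes were lower. In plasmacytoid dendritic-like cells 6 of 9 targets were at least 2-fold higher, where 2.26% of 6952 genes were, and all 9 were higher to some degree. The median log2 ratio of the 9 was 1.10, against -0.04 for all genes. Myc had 24.3 and 5.89 CPM there, a ratio of 4.12 (interval 2.01 to 9.53), and Egr1 151 and 55.0 CPM, a ratio of 2.74 (interval 2.15 to 3.52). Neutrophil markers summed to 1167 CPM in PTIR1 and 272 CPM in mock plasmacytoid dendritic-like cells, and their part in these ratios was not tested.

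Over the 22 levels of 11 classes in 2 libraries, on the log2(CPM + 1) scale, the genes most like each member were as follows. Areg was matched only loosely, best by Gbx1 (Pearson's r = 0.73), Mtmr10 (0.69) and Zdhhc12 (0.68). Ereg was closest to Cald1, Sema3a and Cavin3 (0.97 for each), genes that were high in tumour-like and fibroblast-like cells. Hbegf was closest to Anxa3, Pttg1ip and Fcna (0.95, 0.95 and 0.93), Btc to Lgr6, Ngef and Cldn6 (0.96, 0.95 and 0.95), Tgfa to Hcn2, Nsmf and Tyro3 (0.90, 0.88 and 0.87) and Egfr to Mn1, Nrxn2 and Foxr1 (0.94, 0.94 and 0.93). The points share libraries and differ in depth between classes, and the correlations are descriptions only.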

How the data were processed

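The authors deposited 1 table of raw UMI counts for each library. Per the file headers, Cell Ranger 5.0.0 wrote these tables. Seurat 3.2.3 and mm10 are named in the submitters' processing notes, and kit version 3.1 in the labels' protocols. The annotation version is not given in the sources used here. Barcodes needed 200 genes or more and no more than 10% mitochondrial UMIs, which 7567 PTIR1 and 9328 mock cells passed. Doublets were treated unequally: Scrublet's threshold called 67 PTIR1 cells (0.885%), which were removed, but 0 mock cells, so the 696 highest-scoring mock cells (7.46%) were removed at a rate of 0.8% per 1000 cells. Both libraries were clustered together on log values scaled to 10000 UMIs (2000 variable genes without the 6 members, 30 components, 15 neighbours, Leiden resolution 1.0). A cluster was named from 3 or more markers, each in at least 10% of its cells and over 2-fold above other lineages.

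UMIs were summed per class and library and divided by the class total (CPM). Levels carry exact Poisson, shares exact binomial and ratios exact conditional binomial intervals, which cover counting error only, and a count of 0 allows up to 3 counts. Classes with at least 20 cells per library were described, ratios given from 10 UMIs, and genes called past 2-fold from 50 UMIs. All members were named in these classes. Other pathway genes were named up to 3 per list and class, ranked by the interval's end closest to 1, and the 3 genes that correlated best with each member were named too. Beyond this rule, Egr1 in tumour-like cells, receptors and ligands with few or no UMIs, and marker genes were named after their values were seen. The members and lists were chosen with earlier results of these data known. On simulated Poisson counts for 11439 genes at macrophage-like depth, 95.3% of intervals of unchanged genes held the true value, which checks the code and not the biology. For the ratios, 14 planned settings and 3 added after the data were seen were tried. The tools were scanpy 1.11.5, igraph 0.11.9, scikit-learn 1.9.0, scipy 1.17.1, numpy 2.4.6 and pandas 2.3.3 under Python 3.11.15.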

Additional observations from a re-analysis of the deposited data

Results flagged for a closer look

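Areg differed between classes in direction, a difference that was not tested: its PTIR1 over mock ratio was 9.21 in macrophage-like cells and 0.354 in T-like cells, with intervals on opposite sides of 1. The T-like value turned to 2.98 when each library was clustered on its own. Hbegf had a ratio of 2.68 in macrophage-like cells and 0.888 in tumour-like cells, likewise with intervals on opposite sides of 1 and not tested.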

How the results depend on the processing

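With 1 library per group no library could be left out, and no value here speaks of replicate error. No paired analysis was possible because the groups share only the number 1, given in accession order. Values are log2 ratios of PTIR1 over mock, and the cause of each shift was not tested unless the setting itself gives it. Among the 19 ratios, each under up to 17 settings, those whose interval lay on one side of 1 turned direction in 4 cases, given below. Of those whose interval spanned 1, Tgfa in tumour-like cells (-0.39) was 0.32 with cells weighed equally, and Egfr in plasmacytoid dendritic-like cells (0.15) was -0.057 with libraries clustered apart and -0.12 in cells without Krt18 and Tm4sf1 UMIs. Areg in macrophage-like cells (3.203) kept its direction under all 17 settings, with 2.76 at the 20% mitochondrial limit, 2.46 with at least 500 genes, 2.16 at resolution 2.0, 3.83 in thinned cells, 1.65 by the direct gate, 3.64 with clusters weighed equally, 2.61 without T marker cells and 3.86 without the 5 highest cells. Hbegf in macrophage-like cells (1.42) also kept it, with 1.17 at the mitochondrial limit, 1.08 with 500 genes, 1.56 at resolution 2.0, 1.26 with members among the variable genes, 1.61 with libraries clustered apart, 1.28 thinned, 1.19 with clusters weighed equally, 1.53 with interferon-gene clusters added and 1.62 without T marker cells.

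In tumour-like cells Areg (0.14) turned to -0.030 with doublets removed by rate in both libraries and was 0.77 with cells weighed equally and 1.29 thinned. Ereg (0.37) was 0.49 at the mitochondrial limit, 0.49 with 500 genes, 0.11 with cells weighed equally and 0.034 thinned. Hbegf (-0.17) was -0.28 with doublets by rate, -0.053 with cells weighed equally, -0.093 under median scaling and -0.24 without the 5 highest cells, and turned to 0.030 thinned. Btc (-0.22) was -0.41 thinned. Areg in T-like cells (-1.50) turned to 1.58 with libraries clustered apart and was -0.70 at the mitochondrial limit, -0.53 with 500 genes, -0.60 thinned and -2.70 without the 5 highest cells, and Hbegf in neutrophil-like cells (0.53) to -0.20 thinned.

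The share of Areg UMIs in PTIR1 tumour-like cells (27.9%) was 31.0% at the mitochondrial limit, 30.8% with 500 genes and 26.1% at resolution 0.5, and that in mock tumour-like cells (76.2%) was 73.4% with no doublets removed. In macrophage-like cells the PTIR1 share (30.5%) and the mock share (6.64%) were 47.2% and 10.4% at the mitochondrial limit, 45.2% and 9.06% with 500 genes, 34.2% and 8.92% with no doublets removed, 37.7% and 9.86% at resolution 0.5, and 8.91% and 5.15% at resolution 2.0. Genes at least 2-fold higher or lower in macrophage-like cells (2.44% and 0.787%) were 5.48% and 1.91% among genes with at least 10 UMIs and 1.14% and 0.463% with at least 200. In tumour-like cells they (1.16% and 1.19%) were 4.40% and 2.59%, and 0.424% and 0.787%. Clustering each library apart left no tumour-like class and no mock fibroblast-like cells, so those ratios had no value, nor had fibroblast-like cells without Krt18 and Tm4sf1 UMIs. Few UMIs limited Tgfa and Egfr, and few cells the PTIR1 mast or basophil-like class.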
